A study of Mus musculus with 4 samples.

Results

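The secreted insulin-like growth factor (IGF) binding proteins *Igfbp2* to *Igfbp7*, with the receptors *Igf1r* and *Insr*, were followed through single cells of mouse aorta. These 8 genes were chosen by name and not by a cut on their values, although earlier results of these data were known. The count table held 7 of them among 18767 genes, and *Igfbp2* was not analysed here. Of 991 deposited cells, the 824 in which more than 1200 genes were detected were used.

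Cells came from aortas of male C57BL/6J mice aged 1.5 to 3 months, dissected from the root to below the iliac artery and sorted as CD31+ CD45- TO-PRO-3- cells. Mice of the *Jag1* ECKO group were *Jag1* fl/fl Cdh5-CreERT2/+, in which tamoxifen switches on a Cre recombinase driven by the EC gene *Cdh5*. Controls, *Jag1* ECWT, were *Jag1* fl/fl Cdh5+/+ without Cre, and both groups received tamoxifen at 2 mg per day for 5 days. SORT-seq, a plate method that tags the 3′ ends of transcripts with unique molecular identifiers (UMIs), gave 2 libraries per group, here ECKO-1, ECKO-2, ECWT-1 and ECWT-2. The number of animals behind each library was not given in the sources used here, so each p-value measures only the spread between libraries.

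IGF1 and IGF2 act through the tyrosine kinase receptor encoded by *Igf1r*, and the closely related receptor encoded by *Insr* binds insulin and, in one of its splice forms, IGF2. IGF binding proteins hold the ligands in plasma and tissue and can both prolong their life and keep them from the receptor, until proteases cleave the binding protein. *Igfbp7* encodes a low-affinity relative that is abundant in vessel walls and basement membrane. EC are both a source of binding proteins and a target of insulin and IGF.

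The kept cells numbered 202, 236, 140 and 246 in ECKO-1, ECKO-2, ECWT-1 and ECWT-2, and their summed counts ranged from 859280 to 1779042 per library. Clustering with the 8 genes left out of the variable genes gave 14 clusters. Of these, 13 were EC-like and held 794 cells, and cluster 12 held 30 cells led by *Myl9*, *Lum* and *Myh11*, of which 17 were fibroblast-like and 13 vascular smooth muscle cell (VSMC)-like. The targeted gene *Jag1* was higher in the libraries labelled ECKO, at 158 and 70.8 CPM (counts scaled to a common library total) against 32.6 and 26.1 in those labelled ECWT. This is opposite to a loss of transcript, and the position of the deleted exons relative to the sequenced 3′ tag was not given in the sources used here, so the labels could not be checked in this way. Groups are therefore named below by their labels, and no direction is read as an effect of losing *Jag1*.

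Among the binding proteins *Igfbp7* was the most abundant, at 547 ± 91.9 CPM (SD, n = 4 libraries). It measured 671 and 449.7 CPM in ECKO-1 and ECKO-2, and 527 and 541 CPM in ECWT-1 and ECWT-2, so the groups overlapped. A count was present in 51.8% of cells. The gene lies at chr5:77349240-77408041 on the minus strand (GRCm38) and overlaps *Polr2b* on the other strand. Whether strand was used in counting is not given in the sources used here, which leaves reads of the pair uncertain, although *Polr2b* itself measured 30.9 to 71.0 CPM in the 4 libraries.

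*Igfbp4*, which encodes a binding protein that mostly withholds IGF from its receptor until it is cleaved by pappalysin, came second in level at 201 ± 38.8 CPM (SD, n = 4). Its libraries measured 240.1 and 152 CPM for ECKO and 189.7 and 222 CPM for ECWT, again overlapping. It was detected in 37.9% of cells, and the share per library ran from 32.9% to 42.6%. The gene lies at chr11:99041244-99054392 on the plus strand.

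*Igfbp5*, which encodes a matrix-bound binding protein, was the most uneven of the abundant genes, at 141 ± 122 CPM (SD, n = 4). It measured 105 CPM in ECKO-1, 313 CPM in ECKO-2, 125 CPM in ECWT-1 and 22.8 CPM in ECWT-2. ECKO-2 thus stood above the other 3 libraries and ECWT-2 below them, while ECKO-1 lay below ECWT-1. The share of cells followed the same order, with 8.42% (95% exact binomial interval 4.98 to 13.1%) in ECKO-1, 22.5% (17.3 to 28.3%) in ECKO-2, 11.4% (6.68 to 17.9%) in ECWT-1 and 6.50% (3.76 to 10.3%) in ECWT-2. ECKO-2 also had the deepest cells. With each cell thinned to 2833 counts the share was 17.0% in ECKO-2 and 4.79%, 7.09% and 4.42% in the other libraries in the same order. The level in thinned cells was 25.4 CPM in ECKO-1, 214 in ECKO-2, 136 in ECWT-1 and 26.6 in ECWT-2. Thinning leaves out cells with fewer than 2833 counts. Among them was 1 ECKO-1 cell of 2825 counts, which held 46 of the 107 *Igfbp5* counts of that library. The gene lies at chr1:72857932-72874884 on the minus strand.

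*Igfbp3* and *Igfbp6* were rare. *Igfbp3*, which encodes the main IGF carrier of plasma, had 48 counts in 15 cells, with 11.8, 9.56, 16.3 and 3.35 CPM in ECKO-1, ECKO-2, ECWT-1 and ECWT-2. *Igfbp6*, which encodes a binding protein that prefers IGF2, had 41 counts in 14 cells. These were 28 counts in ECKO-1, 11 in ECKO-2 and 1 in each ECWT library, or 27.6, 6.18, 1.16 and 0.670 CPM. *Igfbp3* lies at chr11:7206086-7213923 on the minus strand and *Igfbp6* at chr15:102144362-102149511 on the plus strand.

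Of the 7 genes, *Igf1r* varied least between libraries. *Igf1r* (chr7:67952827-68233668, plus strand) measured 215, 168, 191 and 172 CPM in ECKO-1, ECKO-2, ECWT-1 and ECWT-2, a mean of 186 ± 21.4 CPM (SD, n = 4). *Insr* (chr8:3122061-3279617, minus strand) measured 67.9, 46.1, 65.2 and 37.5 CPM in the same order, or 54.2 ± 14.7 CPM. In both genes the 2 groups overlapped. *Igf1r* was detected in 51.7% of cells and *Insr* in 22.6%. The level of *Igf1r* was above that of *Insr* in each of the 4 libraries. Since 3′ tags give about 1 count per captured transcript whatever its length, levels of different genes on this scale were set side by side. In the order of levels, *Igfbp4*, *Igf1r* and *Igfbp5* were not apart beyond the spread between libraries, nor were *Igfbp5* and *Insr* or *Igfbp3* and *Igfbp6*. Shares and their intervals cover counting error only, since cells of a library are not replicates.

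**Figure D1:**
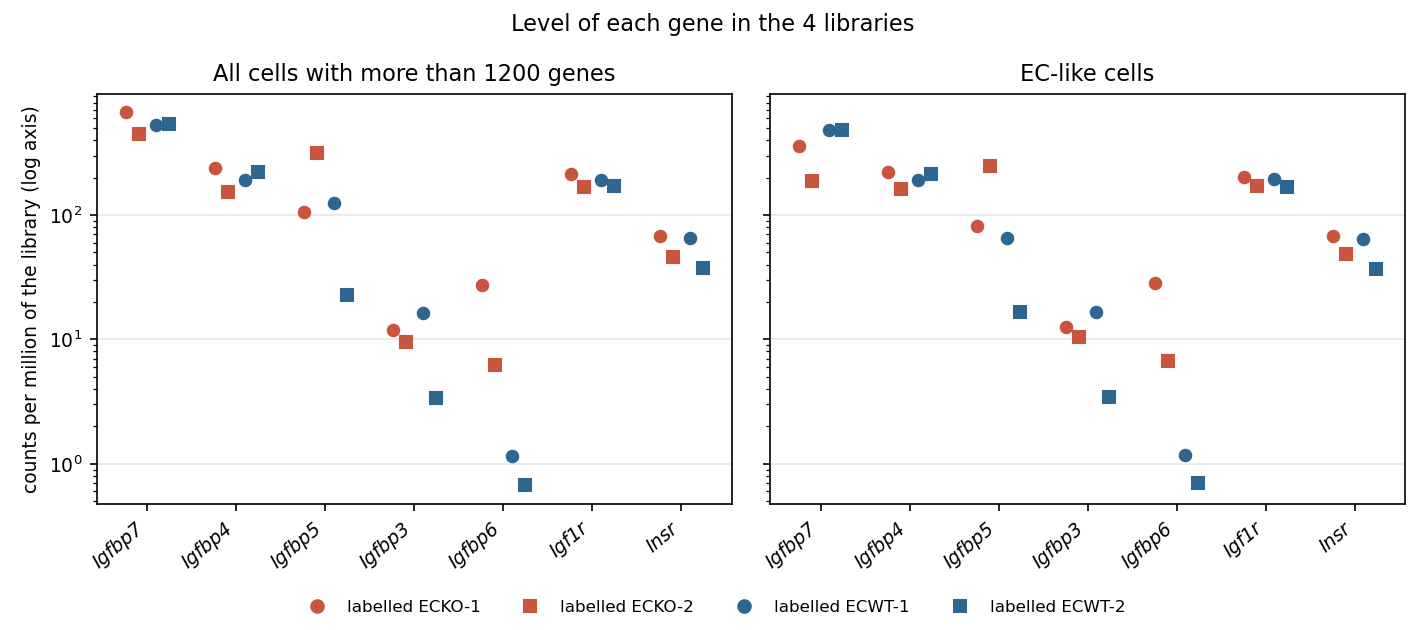
Level of each gene in CPM (log axis) in the 4 libraries, for all cells with more than 1200 genes (left) and for EC-like cells (right). Each point is 1 library. *Igf1r* spans 168 to 215 CPM, whereas *Igfbp5* spans 22.8 to 313 CPM in all cells. In EC-like cells the ECKO points of *Igfbp7* lie below both ECWT points.

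The same level was reached in different ways. The 937 counts of *Igf1r* were spread over 426 cells, with at most 14 in any of them, and the 5% of cells richest in it (41 cells) held 27.3% of its counts. The 804 counts of *Igfbp5* lay in only 102 cells. The richest 5% of cells held 92.3% of them and the richest 8 cells 65.7%, and 1 cell of ECKO-2 alone carried 154. *Igfbp7* (52.2% of counts in the richest 5%) and *Igfbp4* (41.5%) lay between these extremes. *Igfbp4* had no cell above 22 counts, although 312 cells had at least 1. *Insr* was thinly spread, with 130 of its 186 positive cells holding a lone count. Of the 102 *Igfbp5*-positive cells, 60 likewise had a lone count and 22 had 5 or more. Most *Igfbp5* counts thus lay in few cells, whereas *Igf1r* counts were spread over many.

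**Figure D2:**
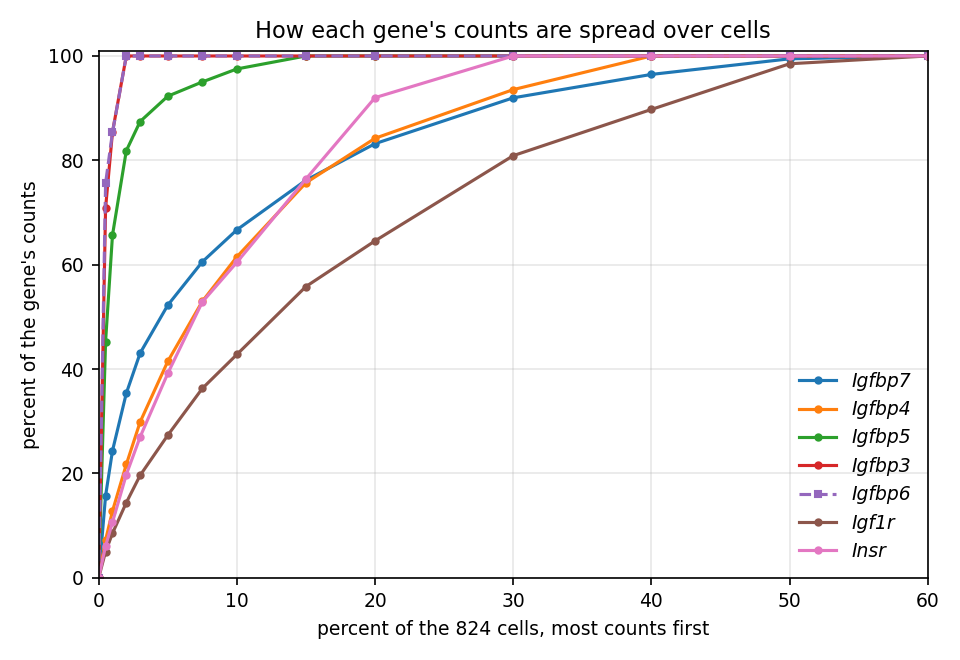
Share of each gene's counts (y axis, percent) held by the cells richest in that gene, against the share of the 824 cells taken in that order (x axis, percent). *Igfbp3* and *Igfbp6* reach 100% within the first 2% of cells, *Igfbp5* reaches 92.3% at 5%, and *Igf1r* 27.3% at 5%.

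Levels were next compared across clusters, as a description without a test. *Igfbp7* was highest in the 30 fibroblast-like and VSMC-like cells of cluster 12, at 3581 CPM, with a count in 30 of 30 cells. These cells held 36.1% of all *Igfbp7* counts but 5.38% of all counts. Both cell types carried it. VSMC-like cells measured 5629, 5347 and 2453 CPM in the 3 libraries that had any, and fibroblast-like cells 1560, 2663, 2861 and 790.1 CPM in the 4 libraries, although some of these values rest on 2 cells. *Igfbp5* was at 871 CPM in cluster 12, and its fibroblast-like cells measured 0 CPM in ECKO-1, 1510 in ECKO-2, 3234 in ECWT-1 and 503 in ECWT-2. *Igf1r*, at 217 CPM, was close there to its level in EC-like clusters, and *Igfbp3* had no count. In cluster 12, 4 of 6 pericyte and 7 of 16 dissociation response markers were at least 3 times higher than in the remaining cells. The part of either in these levels was not tested.

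*Igfbp7* was also detected in EC-like cells. There it measured 358, 186, 483 and 487 CPM in ECKO-1, ECKO-2, ECWT-1 and ECWT-2, on a mean of 378 ± 141 CPM (SD, n = 4). For every 100 counts of the VSMC gene *Acta2*, EC-like cells had 107, 48.3, 250 and 269 *Igfbp7* counts in these libraries, against 24.2, 30.05 and 16.9 in the VSMC-like cells of ECKO-1, ECKO-2 and ECWT-2. Per 100 counts of the fibroblast gene *Dcn* they had 41.8 to 103, against 9.58 to 18.3 in fibroblast-like cells. Some of these ratios rest on 2 cells, and the part of RNA from other cells in the EC-like level was not tested. Within EC the level differed widely by cluster. The cluster led by *Sfrp2* and *Thbs1* (88 cells) reached 891 CPM, with a count in 84.1% of cells and library values between 545 and 1062 CPM. Of the 10 fibroblast markers, 1 was at least 3 times higher there than in the remaining cells, and 55 of its cells came from ECWT-2. The cluster led by *Adra2a* and *Cyp26b1* (85 cells) had 37.8 CPM, with a count in 15.3% of cells and library values between 18.8 and 96.0 CPM. The median depth of the clusters was alike, at 5687.5 and 5327 counts. Free RNA also gives counts in cells that do not express a gene. The share of 15.3% was the lowest of the EC-like clusters, and the part of free RNA in it was not tested. Shares also depend on depth, and the median of EC-like clusters ran from 3228.5 to 8156 counts.

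The *Adra2a*/*Cyp26b1* cluster that was poor in *Igfbp7* was rich in *Igfbp4*, at 355 CPM with a count in 64.7% of cells, and in the ligand *Igf2*, at 691 CPM. *Igf2* had entered the variable genes and led this cluster, so its level there helped to define it. In the *Sfrp2*/*Thbs1* cluster *Igfbp4* measured 148 CPM and *Igf2* 38.0 CPM. Binding protein and ligand thus ran in opposite order to *Igfbp7* across this pair of clusters.

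*Igfbp5* was found in EC of 3 clusters above all. It measured 293 CPM in the cluster led by the water channel *Aqp1* and *Ret* (71 cells), 347 CPM in that led by *Hbegf* and *Pthlh* (49 cells) and 1451 CPM in that led by *Lrg1* and *Fabp4* (32 cells). It was at 26.5% of cells in the *Hbegf*/*Pthlh* cluster and at 0 of 64 in the cluster led by *Nr4a1*, of which 54 cells came from ECKO-1. At a median of 3973 counts per cell, 0 of 64 cells allows a share of cells with a count of up to 4.69%, which does not limit the share of cells expressing the gene. The cluster led by *Coch* had a count in 31.2% of its 32 cells but a level of 47.1 CPM. Few cells carried these levels. In EC-like cells 6 cells with more than 20 counts each held 420 of 563 *Igfbp5* counts, and 4 of them were in ECKO-2. In the *Aqp1*/*Ret* cluster, 46 of the 105 counts were those of 1 ECKO-1 cell.

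The *Lrg1*/*Fabp4* cluster combined several of the genes. In addition to *Igfbp5*, it had the highest EC-like level of *Igfbp4* (836 CPM, 87.5% of cells), *Igfbp6* (181 CPM) and *Insr* (186 CPM, 53.1% of cells). Of the 41 *Igfbp6* counts in the data, 32 were in 6 of its cells. Its transcripts included *Nr2f2*, a transcription factor of venous EC, and the fatty acid carriers *Fabp4* and *Cd36*. Only 2 of the 7 capillary or lipid-handling EC markers were at least 3 times higher there than in the remaining cells. So were 1 of 5 lymphatic EC, 1 of 10 VSMC and 2 of 10 EC markers, so the cluster is given no type here. The cluster had 18 cells from ECKO-1, 9 from ECKO-2, 3 from ECWT-1 and 2 from ECWT-2. *Insr* was at 141, 198, 342 and 317 CPM in these, and was found in at least 44.4% of the cluster's cells in each library. *Igfbp4* was at 682, 976 and 2226 CPM in the first 3 and had no count in the 2 cells of ECWT-2. *Igfbp5* there was chiefly the 237 counts of ECKO-2, with 18 in ECKO-1, 0 in ECWT-1 and 2 in ECWT-2. It was found in only 7 of the 32 cells, and 2 ECKO-2 cells with 154 and 80 counts held 234 of its 257 counts. Without these 2 cells the level fell from 1451 to 149 CPM, below the *Aqp1*/*Ret* and *Hbegf*/*Pthlh* clusters with all their cells. Those clusters measured 65.9 and 88.7 CPM when their own cells of more than 20 counts were left out in the same way. Likewise 1 ECKO-1 cell held 20 of the 32 *Igfbp6* counts. Clustering with the genes allowed among the variable genes, or at the lower resolution of 0.8, returned a cluster of 32 cells with the same shares of each gene's counts, so these settings are no separate evidence on the levels. Of the dissociation response markers, 3 of 16 were at least 3 times higher in this cluster than in the remaining cells. The *Nr4a1* cluster also had 3, and cluster 12 had 7. The part of this response in these levels was not tested.

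*Igfbp3* was highest in another small cluster, led by *Slc6a6* and *Gpihbp1* (22 cells). *Gpihbp1* encodes the protein that carries lipoprotein lipase across capillary EC. The cluster held 40 of the 48 *Igfbp3* counts, in 9 cells, and measured 416 CPM. These counts came from 3 libraries, with 10 in ECKO-1, 17 in ECKO-2, 13 in ECWT-1 and 0 in the 2 cells of ECWT-2. The *Lrg1*/*Fabp4* cluster held 6 counts in 4 of its 32 cells (33.9 CPM), among them 4 of the 5 counts of ECWT-2. When EC-like cells were split by *Gpihbp1* alone, *Igfbp3* was detected in 7 of 24 cells with a *Gpihbp1* count (29.2%) and in 8 of 770 without (1.04%). The *Slc6a6*/*Gpihbp1* cluster was also the richest EC-like cluster in *Igf2*, at 1881 CPM with a count in 50% of its cells. It was drawn with *Igf2* among the variable genes, so this level is not independent of the clustering. Its *Igfbp7* level of 2452 CPM was the highest of the EC-like clusters with libraries pooled, but 201 of its 236 counts were in the 11 cells of ECWT-1. In ECWT-1 it measured 4749 CPM, whereas in ECKO-1, ECKO-2 and ECWT-2 it measured 939, 293 and 533 CPM, each below the *Sfrp2*/*Thbs1* cluster of the same library.

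*Igf1r* varied least over EC-like clusters, from 97.7 CPM in the *Aqp1*/*Ret* cluster to 261 CPM in that led by *1700113A16Rik* and *Chad*, a coefficient of variation of 0.252. The same coefficient was 0.661 for *Insr*, 0.877 for *Igfbp4*, 1.41 for *Igfbp7* and 2.28 for *Igfbp5*. It was 3.10 for *Igfbp6* and 3.28 for *Igfbp3*. *Igfbp4*, *Igfbp7* and *Insr* were, like *Igf1r*, detected in every cluster, but at levels that differed more.

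**Figure D3:**
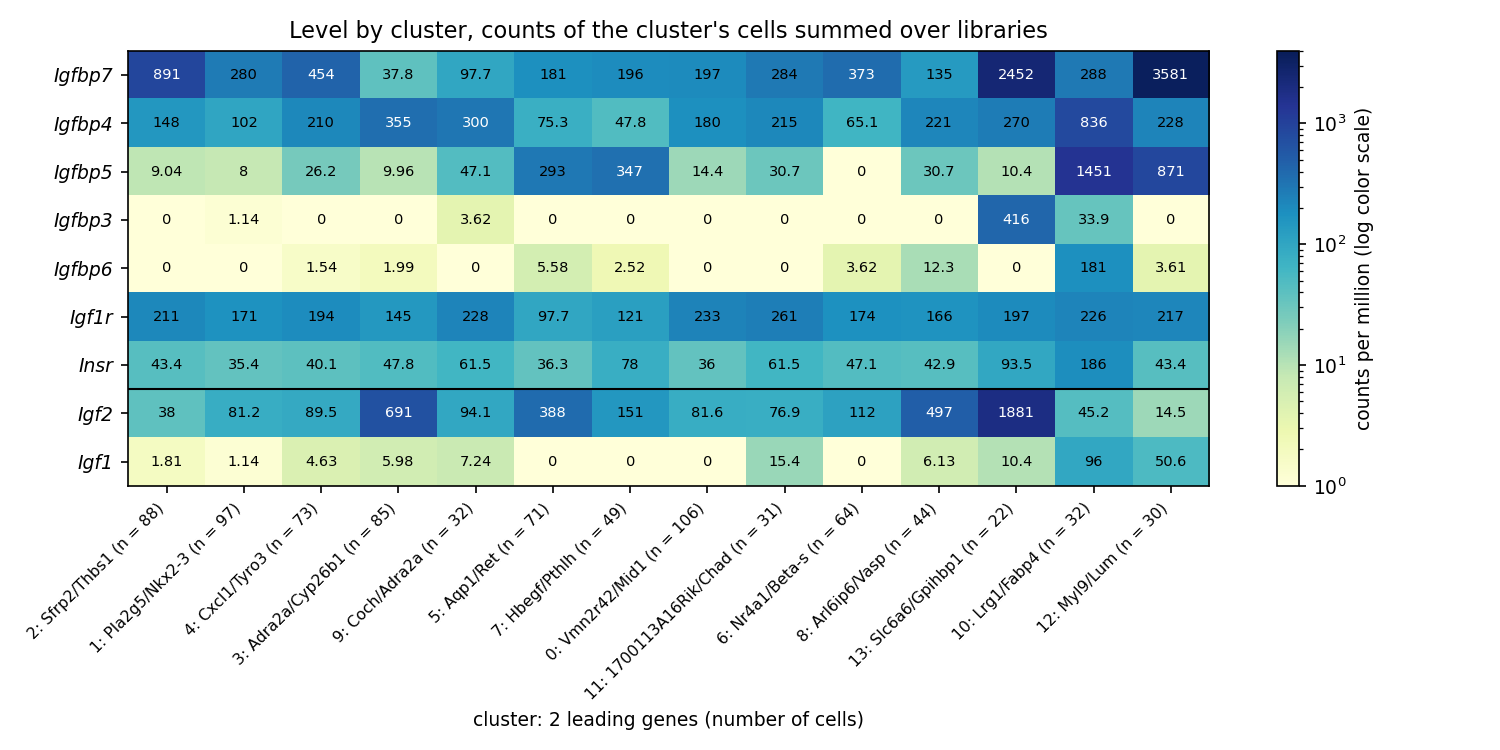
Level in CPM (log color scale, values below 1 drawn as 1) of the 7 genes and of the ligands *Igf2* and *Igf1* in the 14 clusters, named by their leading genes, with the number of cells (n). Counts of a cluster's cells were summed over libraries. *Igf1r* is even across columns. *Igfbp3* is highest in the *Slc6a6*/*Gpihbp1* column (416 CPM), followed by the *Lrg1*/*Fabp4* column (33.9 CPM). *Igfbp4*, *Igfbp5*, *Igfbp6* and *Insr* each have their highest EC-like value in the *Lrg1*/*Fabp4* column.

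Whether binding proteins were used together or one at a time was asked in EC-like cells thinned to 2833 counts, which left 714 cells. Of these, 279 (39.1%) had no binding protein count, 337 (47.2%) had exactly 1 of the 5 genes, 91 (12.7%) had 2, 6 had 3 and 1 had 4. If the genes were detected independently within each library, 40.1% would have none, 45.1% exactly 1 and 13.9% exactly 2. The number of binding proteins per cell was therefore close to that of independent detection. In the 175 cells with at least 3 binding protein counts, a single gene held all of them in 105 cells (60%). Over all 175 cells, the gene with most counts was *Igfbp7* in 91 cells, *Igfbp4* in 69, *Igfbp5* in 8, *Igfbp3* in 2 and *Igfbp6* in 1, and 4 cells were tied. *Igfbp7* led in 57.9%, 61.3% and 61.2% of such cells in ECKO-1, ECWT-1 and ECWT-2. In the 39 such cells of ECKO-2 it led in 23.1%, *Igfbp4* in 56.4% and *Igfbp5* in 15.4%. The order in ECKO-2 depended on thinning. At the deposited depth *Igfbp7* led there in 33 of 80 cells, *Igfbp4* in 31 and *Igfbp5* in 8. Over the 4 libraries a single gene then held all counts in 167 of 325 cells (51.4%).

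Pairs of genes were then compared by the odds ratio of detection in the same cell, stratified by library. Over 23085114 pairs formed from 9986 genes expected together in at least 5 cells, the median odds ratio was 1.00 and the middle 90% lay between 0.4999 and 1.80. Among these pairs 5.86% had an odds ratio above 1 in all 4 libraries and 6.97% had one below 1 in all 4. The 7 genes gave 10 pairs that met this minimum, of which 2 were above 1 in all 4 libraries and 1 was below.

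The pair below 1 was *Igfbp5* and *Igfbp7*, with an odds ratio of 0.354. Both were found in 9 cells where 17.9 were expected, and 1.66% of the background pairs had a lower ratio. Comparing cells only within a cluster and library, the ratio was 0.378. It depended on thinning and on the cells taken, at 0.765 with cells at their deposited depth, when 2 of 4 libraries were above 1, and at 0.841 with fibroblast-like and VSMC-like cells included. *Igfbp4* and *Igfbp7*, the most widespread binding proteins, were found together in 70 cells where 76.3 were expected (odds ratio 0.823, above 1 in 1 of 4 libraries), and within clusters the ratio was 1.23. The ratio was thus below 1 across clusters and above 1 within them. With a gene counted as used only at 2 counts or more, it was above 1 across clusters too.

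*Igfbp5* was found with *Insr* more often than independent detection gives. They shared 17 cells where 7.69 were expected, an odds ratio of 3.32, and 0.368% of the background pairs had a higher ratio. The ratio was above 1 in all 4 libraries, and within clusters it was 2.54. It was 2.26 at the deposited depth. *Igfbp4* and *Igfbp5* were also above 1 in all 4 libraries, with 16 cells where 12.3 were expected and an odds ratio of 1.51, but 11.5% of the background pairs were higher. With a gene counted as used only at 2 counts or more, this ratio turned to 0.580, with 1 shared cell. The 4 pairs of a receptor with *Igfbp4* or *Igfbp7* had odds ratios between 0.714 and 1.39, none on 1 side of 1 in all 4 libraries. *Igf1r* with *Insr* gave 1.13, with 2 of 4 libraries above 1. The counts of cells behind these ratios are small, and cells of a library are not replicates, so they are given without a p.

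**Figure D4:**
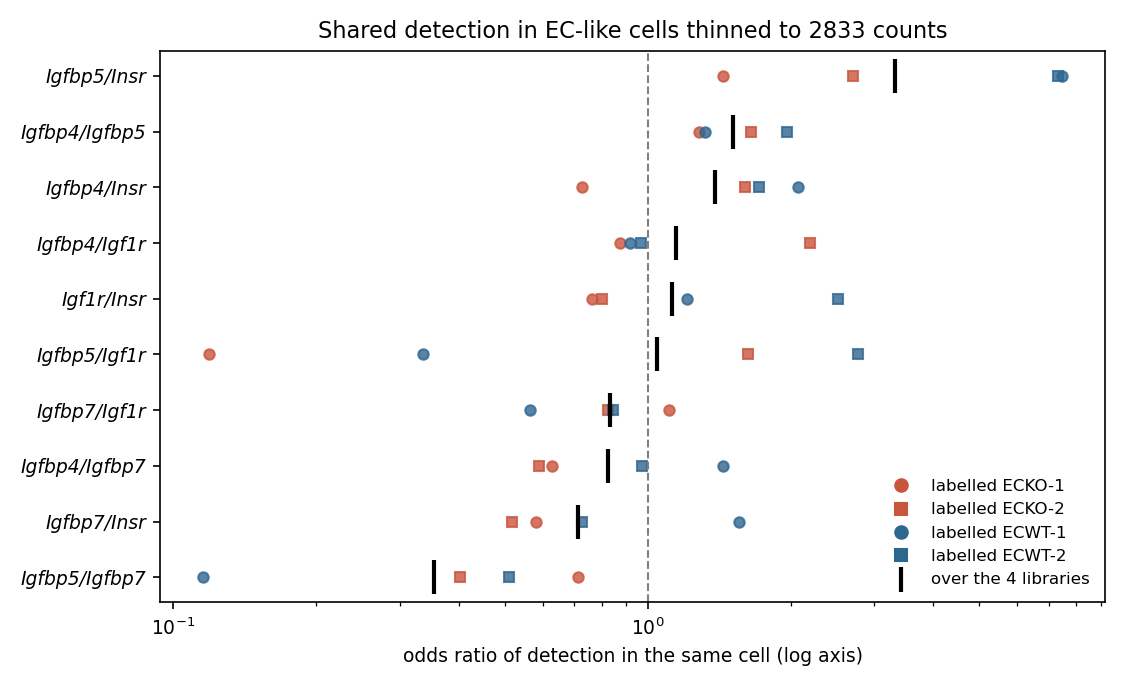
Odds ratio (log axis) of detection in the same cell for the 10 pairs of genes, in EC-like cells thinned to 2833 counts. Points are libraries and the vertical bar is the ratio over the 4 libraries. The 4 points of *Igfbp5*/*Insr* and *Igfbp4*/*Igfbp5* lie above 1 and those of *Igfbp5*/*Igfbp7* below 1, while the other pairs have points on both sides. At 2 counts or more *Igfbp4*/*Igfbp5* turned to 0.580.

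The genes most like each binding protein across these cells were found from the mean of the within-library Pearson r over 714 cells, among 5199 candidates. The r values were small and share library and depth, so they only describe the data. For *Igfbp3* they were *Fabp4* (0.40), *Flt1* (0.27) and *Fam101b* (0.23). *Igfbp3* had a count in only 11 of these cells, so its r values rest on very few cells. Its share was 1.26%, 0.948%, 4% and 0.913% in ECKO-1, ECKO-2, ECWT-1 and ECWT-2, and *Flt1* was at 0.05 in ECKO-2. For *Igfbp4* the most alike were *Tmem88* (0.24), the sialomucin *Emcn* (0.23) and *Ccdc3* (0.21). *Igfbp7* was most like *Emcn* (0.27), *Dcn* (0.26) and the secreted Wnt antagonist *Frzb* (0.23). *Igfbp5* had only *Commd3*, *Insr* and *Nars*, each at 0.17. For *Commd3* this rests on ECKO-1, where r was 0.50, against 0.10, 0.05 and 0.03 in ECKO-2, ECWT-1 and ECWT-2. *Insr* was at 0.02 in ECKO-1, against 0.15, 0.29 and 0.21 in the same 3 libraries. *Nars* rests mainly on ECWT-1 (0.37, against 0.17, 0.01 and 0.12 in ECKO-1, ECKO-2 and ECWT-2), and *Fam101b* was at -0.02 in ECWT-2. No candidate could be named for *Igfbp6*, which had a count in 8 of these cells and in 0 of those of ECWT-2, where r is undefined.

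The libraries with the 2 labels were compared with counts summed per library. With 2 libraries against 2, an exact permutation test of a single value cannot pass 0.05, so the test was edgeR's quasi-likelihood fit across all genes with Benjamini-Hochberg adjustment. In all cells 9730 genes were tested and 0 passed an adjusted p of 0.05 (0% called), and the unadjusted p was under 0.05 for 465 (4.78%). By DESeq2, 2 genes were called (0.0206%). In EC-like cells 9485 genes were tested and 0 passed (0% called), and the unadjusted p was under 0.05 for 416 (4.39%). By DESeq2, 1 gene was called (0.0105%), which was *Jag1*. Of the 7 genes, 6 were tested. *Igfbp6*, with 1 count in each ECWT library, did not pass the filter on low counts, so it was not among the genes tested in either fit with the filter. In all cells 0 of 6 passed, and the unadjusted p was under 0.05 for *Igfbp5* alone. In EC-like cells 0 of 6 passed, and it was under 0.05 for *Igfbp5* and *Igfbp7*. With no filter on low counts the background was 0.686% of genes called in all cells and 0.365% in EC-like cells, and 2 and 3 of the 7 genes were called there, *Igfbp6* among them.

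*Igfbp5* had the largest difference of the 6 genes. In all cells its log2 difference, libraries labelled ECKO over those labelled ECWT, was 1.67 (SE 0.70, edgeR adjusted p = 0.900). In EC-like cells, with 81.1 and 248 CPM against 65.2 and 16.7 CPM, it was 2.20 (SE 0.62, edgeR adjusted p = 0.921). Both ECKO libraries were here above both ECWT libraries, as were 15.6% of the genes tested. With thinned cells the log2 difference was 0.80 in all cells (SE 0.83, edgeR adjusted p = 0.945) and 1.45 in EC-like cells (SE 0.84, edgeR adjusted p = 0.903). The EC-like levels were then 15.5 and 176 CPM against 70.6 and 14.5 CPM, and the groups overlapped. Thinning also dropped the ECKO-1 cell of 2825 counts that held 46 of that library's 77 EC-like *Igfbp5* counts. The fall in ECKO-1 is therefore not a result of equal depth alone. Without the 6 EC-like cells of more than 20 counts, the levels were 32.8 and 41.2 CPM against 26.3 and 16.7 CPM. These cells were picked by their *Igfbp5* counts and 4 of them were in ECKO-2, so a fall there was set by the choice. Without the *Lrg1*/*Fabp4* cluster the levels were 68.9 and 108 CPM against 66.1 and 15.4 CPM, and the log2 difference was 1.30 (edgeR adjusted p = 0.914). The cluster was picked as the one highest in *Igfbp5*, with 237 of the 407 EC-like counts of ECKO-2, so this fall was set by the choice. Without ECKO-2 the log2 difference in EC-like cells was 1.11 (edgeR adjusted p = 0.402), and without ECKO-1 it was 2.84 (edgeR adjusted p = 4.60e-32). With 1 library in an arm, that library is assumed to vary like the others.

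*Igfbp7* had a log2 difference of 0.07 in all cells (SE 0.20, edgeR adjusted p = 0.977). There the groups overlapped in each of the 6 tested genes, against a background of 16% of all genes with both ECKO libraries higher and 19.4% with both lower. In EC-like cells, at 358 and 186 CPM against 483 and 487 CPM, the log2 difference was -0.84 (SE 0.25, edgeR adjusted p = 0.921). Both ECKO libraries were below both ECWT libraries, as were 18.8% of genes. With thinned cells the log2 difference was -1.04 (SE 0.27, edgeR adjusted p = 0.903). Without the 10 EC-like cells of more than 20 *Igfbp7* counts, of which 8 were in ECWT libraries, the levels were 358 and 160.1 CPM against 293 and 437 CPM, which overlapped. These cells were picked by their *Igfbp7* counts, so leaving them out had to lower the ECWT levels most. The high ECWT levels lay in different cells. In ECWT-1, 49.4% of the EC-like *Igfbp7* counts were in the *Slc6a6*/*Gpihbp1* cluster, with 8.03% of that library's EC-like cells, and in ECWT-2, 47.9% were in the *Sfrp2*/*Thbs1* cluster, with 23.0% of its EC-like cells. These clusters were picked for their share of ECWT counts, so leaving them out had to lower the ECWT levels. Without the *Slc6a6*/*Gpihbp1* cluster the levels were 342 and 185 CPM against 257 and 486 CPM, which overlapped. Without the *Sfrp2*/*Thbs1* cluster they were 309.7 and 161 CPM against 477 and 332 CPM, which did not. Without both they were 291 and 159.5 CPM against 229 and 330 CPM, which overlapped. Fibroblast-like and VSMC-like cells, which are part of the all-cell sums and rich in *Igfbp7*, made up 8 of 202, 12 of 236, 3 of 140 and 7 of 246 cells in ECKO-1, ECKO-2, ECWT-1 and ECWT-2.

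*Igfbp4* and the receptors showed no difference between the labels beyond its error. In all cells the log2 differences were -0.08 (SE 0.23) for *Igfbp4*, 0.09 (SE 0.18) for *Igf1r* and 0.18 (SE 0.30) for *Insr*, with edgeR adjusted p of 0.978, 0.973 and 0.959. In EC-like cells they were -0.08 (SE 0.20), 0.06 (SE 0.18) and 0.25 (SE 0.29), with edgeR adjusted p of 0.981, 0.988 and 0.945. *Igfbp3* had a log2 difference of 0.36 in EC-like cells with an SE of 0.66 (edgeR adjusted p = 0.963), too wide to show a difference of this size. *Igfbp6* was at 28.4 and 6.71 CPM in EC-like cells of the ECKO libraries and 1.19 and 0.695 CPM in those of the ECWT libraries. Without the *Lrg1*/*Fabp4* cluster it was at 5.83 and 0.634 against 1.20 and 0.701 CPM. The cluster held 32 of the ECKO and 0 of the ECWT counts, so leaving it out had to lower the ECKO levels alone.

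Other cell markers moved with these libraries. In EC-like cells the 10 VSMC markers summed to 667 and 652 CPM in ECKO-1 and ECKO-2 and to 445 and 400.4 CPM in ECWT-1 and ECWT-2, and 2 of the 10 were at 0 in ECWT-1. The 10 fibroblast markers summed to 1091 and 1137 CPM against 1180.0 and 1731 CPM. The 7 capillary or lipid-handling EC markers summed to 905 CPM in ECKO-1 against 250.2, 211 and 197 CPM in ECKO-2, ECWT-1 and ECWT-2. The 16 dissociation response markers summed to 2772 CPM in ECKO-1 and to 1326, 1479 and 1341 CPM in the others. Red blood cell markers summed to 80.1 CPM in ECKO-1 and to at most 0.695 CPM in the others. The 5 lymphatic EC markers in the table summed to 63.2, 89.1, 51.0 and 38.2 CPM in ECKO-1, ECKO-2, ECWT-1 and ECWT-2, the same order of libraries as EC-like *Igfbp5*, and 2 of the 5 were at 0 in ECWT-1. The median mitochondrial share was 3.08% in ECKO-2 and at least 4.39% in each of the others. ECKO-1 thus stood apart in the capillary, dissociation and red blood cell lists, and ECKO-2 was highest in the lymphatic list and lowest in mitochondrial share. The part of these cells in the differences above was not tested.

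**Figure D5:**
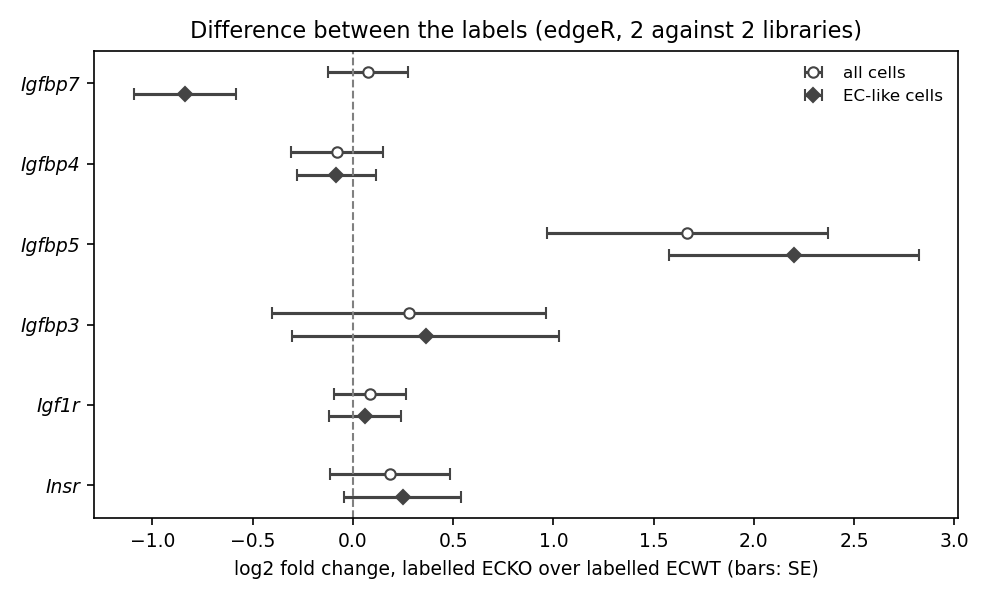
log2 difference between the libraries labelled ECKO and those labelled ECWT (x axis) for the 6 tested genes, in all cells (open circles) and EC-like cells (diamonds), with the SE of edgeR's fit as bars. *Igfbp5* lies at 1.67 and 2.20, *Igfbp7* at 0.07 and -0.84, and the other 4 genes are within 1 SE of 0. None of the 6 passed an adjusted p of 0.05.

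The rest of the IGF pathway was read from a list of 63 genes, of which 59 were in the table. Of the ligands, *Igf2* was found in EC-like cells at 309 and 182 CPM in the ECKO libraries and 274 and 170.3 CPM in the ECWT libraries, with a log2 difference of 0.16 (SE 0.27, edgeR adjusted p = 0.959). *Igf2* was thus a more abundant transcript in these cells than *Igf1*, which measured 7.37, 4.88, 8.30 and 6.26 CPM in ECKO-1, ECKO-2, ECWT-1 and ECWT-2. *Ins1* stayed at or below 2.78 CPM. In thinned EC-like cells *Igf2* and *Igfbp7* were found together in 46 cells where 66.9 were expected, an odds ratio of 0.482 that was below 1 in all 4 libraries. *Igf2* with *Igfbp4* gave 1.21, above 1 in 3 of 4 libraries. *Igf1* was highest in the *Lrg1*/*Fabp4* cluster (96.0 CPM) and cluster 12 (50.6 CPM).

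Of the other receptors, *Igf2r*, which clears IGF2 from the cell surface, measured 98.0, 108, 121 and 119.6 CPM in EC-like cells of ECKO-1, ECKO-2, ECWT-1 and ECWT-2. Its log2 difference was -0.19 (SE 0.20). The insulin receptor-related gene *Insrr* stayed between 1.83 and 4.87 CPM. The most abundant proteases were *Htra1*, a secreted serine protease, and *Ctsd*, which encodes the lysosomal protease cathepsin D, at means of 478 and 253 CPM in all cells. The transcription factor *Foxo1*, which insulin and IGF signalling keeps out of the nucleus, measured 231 CPM and the kinase *Akt1* 194 CPM. *Socs2*, a feedback inhibitor of growth hormone signalling, measured 129.9 CPM, and the adaptor *Grb2* 80.8 CPM. Of the other binding proteins, *Tmem219*, a receptor for IGFBP3, measured 33.5 CPM and *Igfbpl1* 0.643 CPM. In all cells 40 of the 63 genes were tested and 0 passed an adjusted p of 0.05 in either direction, with 23 of 40 higher in the ECKO libraries and a median log2 difference of 0.07, against -0.00104 over all genes. In EC-like cells 38 were tested, 0 passed, 20 of 38 were higher and the median was 0.02, against -0.00132 over all genes. Only *Grb10*, an adaptor that restrains the insulin and IGF1 receptors, and the membrane protease *Mmp14* had an unadjusted p under 0.05 there, at log2 differences of -0.58 and -0.66 (edgeR adjusted p = 0.921 for each). These 2 of 38 genes stand beside 4.39% of all genes tested.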

How the data were processed

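The deposited values are estimated counts, for which the authors aligned reads with STAR to GRCm38 and corrected UMI counts for collisions among 4096 UMIs. Per the submitters' processing notes, Seurat 3.1 was also used. Values were rounded to whole counts, which moved the sums of the genes by at most 0.133%. Every sample has a single library. A well barcode marks a plate position, so 324 of 373 barcodes recur in more than 1 library. Doublets were not called, since wells were sorted with single cells. Seurat 5.3.0 clustered log-normalized cells (2000 variable genes without the 8 genes, 12 principal components, resolution 2.4, the lowest on the grid that gave 14 clusters). An EC-like cluster kept at least 7 of 10 EC markers. CPM scale the summed counts of a library or cluster to a common total. Counts summed per library were tested in edgeR 4.0.16 (TMM, filterByExpr, quasi-likelihood) under R 4.3.3, with DESeq2 1.42.0 as alternative, after the same script was tested on simulated data. Cells were thinned to 2833 counts, the lowest 10% mark of EC-like totals, and 743 cells (714 EC-like) reached it. Odds ratios are Mantel-Haenszel estimates over libraries. Intervals are 95% Clopper-Pearson. Gene positions are from GENCODE on GRCm38. The genes and lists were chosen with earlier results of these data known. Named besides the genes themselves are *Jag1*, cell type markers, the ligands, the other receptors, the 2 most abundant pathway genes of each other role, any pathway gene past the threshold, and the 3 genes most like each binding protein. *Grb10*, *Mmp14*, *Polr2b*, the ratios to *Acta2* and *Dcn*, the *Gpihbp1* split, the division of cluster 12, the limit of 20 counts and the levels without given clusters were chosen after the values were seen.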

Additional observations from a re-analysis of the deposited data

How the results depend on the processing

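No paired analysis was possible because no label carries a replicate number that pairs libraries. No setting with all 4 libraries called a gene of the 7 except the fit with no filter on low counts, which called 2 in all cells (*Igfbp5*, edgeR adjusted p = 2.84e-09, and *Igfbp6*) and 3 in EC-like cells (the same with *Igfbp7*, edgeR adjusted p = 0.0251). Over all genes, DESeq2 called 2 and 1, and no filter 127 and 67, in all cells and EC-like cells. Leaving out a library gave 0 to 1 of the 7 genes in all cells and 0 to 2 in EC-like cells, 0 to 417 and 0 to 156 of all genes, and 0 to 2 pathway genes. The calls without ECKO-1 were *Igfbp5* in all cells (edgeR adjusted p = 1.43e-13), *Igfbp5* and *Igfbp7* in EC-like cells (edgeR adjusted p = 8.06e-08 for *Igfbp7*), and the pathway genes *Plat* and *Rictor* (log2 -1.61 and -1.07 in EC-like cells). The call without ECKO-2 was *Igfbp6*, which passed the filter there only through ECKO-1, the library where it is high, so that this call says nothing about the labels. In each such fit the lone library is assumed to vary like the others, and the cause was not tested. Over all settings the edgeR or DESeq2 adjusted p in EC-like cells ran from 4.60e-32 to 0.999943 for *Igfbp5* and from 8.06e-08 to 0.999943 for *Igfbp7*.

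Directions turned in all cells for *Igfbp3* (-0.0024) and *Igf1r* (-0.069) with thinned cells, for *Igfbp4* with all deposited cells (0.026), and for *Igfbp7* with thinned cells (-0.39) and without high-count cells (-0.29). *Igfbp7* was also at -0.78 with cluster 12 and the *Lrg1*/*Fabp4* cluster both left out, a setting chosen after seeing the data, where leaving out cluster 12 alone already gave -0.84. With a stricter minimum of genes per cell, *Igfbp3* in all cells was at 1.45 against 0.28 (edgeR adjusted p = 0.903), and the cause was not tested. *Igf1r* turned in EC-like cells with thinned cells (-0.084). Without 1 library, log2 differences in all cells ran from -0.56 to 1.61 for *Igfbp3*, -0.38 to 0.18 for *Igfbp4*, 0.64 to 3.21 for *Igfbp5*, -0.18 to 0.30 for *Igfbp7*, -0.045 to 0.21 for *Igf1r* and -0.15 to 0.56 for *Insr*. In EC-like cells they ran from -0.47 to 1.68, -0.25 to 0.073, 1.11 to 3.33, -1.30 to -0.47, -0.0034 to 0.14 and -0.086 to 0.63 in the same order. The *Igfbp5*/*Igfbp7* odds ratio was 0.765 at the deposited depth, 0 at 2 counts or more and 0.841 in all cells.

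Other odds ratios crossed 1 at 2 counts or more, namely *Igfbp4*/*Igfbp5* (0.580), *Igfbp4*/*Igfbp7* (1.28), *Igfbp5*/*Igf1r* (0), *Igfbp7*/*Igf1r* (1.34), *Igfbp7*/*Insr* (1.04) and *Igf1r*/*Insr* (0.340). In all cells *Igfbp5*/*Igf1r* was 0.877, and at the deposited depth *Igfbp7*/*Igf1r* was 1.08 and *Igfbp7*/*Insr* 1.05. Leaving out a library took *Igfbp4*/*Igf1r*, *Igfbp5*/*Igf1r* and *Igf1r*/*Insr* across 1, with ranges of 0.914 to 1.26, 0.585 to 1.35 and 0.867 to 1.31, and 36 such odds ratios stayed on their side. At these depths *Igfbp3* and *Igfbp6*, with 48 and 41 counts, allow no statement on change.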
